A study of Mus musculus with 4 samples.

Results

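Newly formed oligodendrocytes were taken as 115 nuclei of 32806 that passed the filters in the brains of 5XFAD mice given extracellular vesicles (EVs), a share of 0.351%. The filters kept barcodes with at least 500 UMIs (unique molecular identifiers, one per captured RNA molecule), 200 to 2500 genes and at most 10% mitochondrial UMIs. A nucleus was a member when it held UMIs of at least 2 of the 6 stage genes *Enpp6*, *Gpr17*, *Bmp4*, *Tcf7l2*, *Casr* and *9630013A20Rik*, with at least 1 among the first 3. It also needed a UMI of *Sox10*, *Olig1*, *Olig2* or *St18*, genes of the oligodendrocyte lineage, and none of *Slc17a6*, a transporter of excitatory neurons, or *Pdgfra*, the growth factor receptor of precursors. The groups were 5XFAD mice given PE-low EVs and 5XFAD mice given PE-high EVs, engineered from the lipids of adipose vesicles with a low or a high content of phosphatidylethanolamine (PE), each with 2 libraries of 2 pooled female mice. The mice were injected intravenously at 7 to 10 weeks of age per the labels. Nuclei came from frozen brain sections, and the 4 libraries hold no vehicle group. Both groups carry the 5XFAD transgenes, which drive amyloid formation, under the *Thy1* promoter, which is active mainly in neurons. Because mice were pooled within a library, differences between mice of 1 library cannot be seen.

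Newly formed oligodendrocytes are the short stage between the dividing precursor, which carries *Pdgfra*, and the cell that wraps axons in myelin. On leaving the cell cycle a precursor first switches on *Gpr17* and *Bmp4*, then *Enpp6*, extends many fine processes and tests axons with them, and either matures or dies. The stage is known as a marker of ongoing myelin formation in the adult brain, where it is rare.

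The gate genes describe how the members were chosen and support nothing further. UMIs of *9630013A20Rik*, a long noncoding RNA of the early stage, were present in 94 of 115 members (81.7%). *Enpp6*, a choline phosphodiesterase, was present in 85 members (73.9%) and *Tcf7l2*, a transcription factor of the Wnt pathway, in 80 (69.6%). *Gpr17*, a receptor held to time maturation, was found in 38 members (33.0%), *Bmp4*, a secreted signal, in 31 (27.0%) and *Casr*, the calcium-sensing receptor, in 2 (1.74%). The members thus rested mostly on *Enpp6*, *9630013A20Rik* and *Tcf7l2*. Of their pairs, *Enpp6* with *9630013A20Rik* was held by 71 nuclei, *Enpp6* with *Tcf7l2* by 67 and *Tcf7l2* with *9630013A20Rik* by 61, while 10 nuclei held *Gpr17* and *Bmp4* together. Of the lineage genes, *St18* was present in 101 members and *Sox10* in 41, while *Olig1* and *Olig2* were present in 10 and 7. In 63 members *St18* was the sole lineage gene with a UMI. Levels are given in CPM (UMIs of a gene per 1000000 UMIs of the class in that library), always for PE-low 1, PE-low 2, PE-high 1 and PE-high 2. *Enpp6* stood at 704, 911, 736 and 1197 CPM in the members. *Gpr17* was at 201, 142, 491 and 270 CPM and *9630013A20Rik* at 3536, 4081, 1913 and 2664 CPM.

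The edge of the rule is given as a description. Of the members, 40 held exactly 2 stage genes, 75 held 3 or more and none held all 6. By library the 40 were 9 of 36, 9 of 37, 13 of 19 and 9 of 23 members, a larger part in the PE-high libraries. Among the 40, *Fyn*, which the rule did not use, stood at 2116, 2559, 2303 and 4083 CPM. In those with 3 or more genes it stood at 2448, 2999, 3757 and 3869 CPM, so the order turned in PE-high 2. The 185 nuclei just outside, which met the other conditions but held 1 stage gene, had *Fyn* at 92.4, 122, 369 and 65.2 CPM. Their median depth was 990 UMIs, against 1124 in members with 2 genes and 1717 in members with 3 or more. A UMI of *Pdgfra* kept out 7 nuclei, 3 in PE-low 1 and 4 in PE-low 2. In these 2 libraries their *Tnr* stood at 3291 and 6742 CPM, against 5104 and 5052 CPM in members with 2 stage genes. The early-stage list stood at 10788 and 17928 CPM against 13818 and 14010 CPM. Their precursor list was higher, at 9142 and 14557 CPM against 5913 and 3907 CPM. Their myelin list was lower, at 2560 and 3218 CPM against 7345 and 7678 CPM. *Fyn* was at 914 and 919 CPM, between the nuclei with 1 stage gene and the members. A UMI of *Slc17a6* kept out 3.

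The label is set beside genes outside the gate, which were chosen with earlier results of these data known and are no independent check of it. *Tnr*, the matrix protein tenascin-R, and *Bcas1*, known from early myelinating cells, each had a UMI in 102 of 115 members (88.7%), and *Fyn*, a kinase of process outgrowth, in 106 (92.2%). After thinning each nucleus to 500 UMIs these shares were 80.9%, 71.3% and 76.5%. *Itpr2*, a calcium channel of the endoplasmic reticulum, was found in 82 members (71.3%). Not all genes of the early-stage list were so widely detected, with *Cnksr3* in 51 members (44.3%, or 30.4% after thinning) and *Lims2*, the least detected of those measured, in 13 (11.3%). The 17 measured genes of a list of the early stage outside the gate summed to 22967, 25575, 20851 and 27179 CPM in the 4 libraries. Barcodes with 100 to 400 UMIs, called near-empty here, had 588, 697, 536 and 563 CPM for the same genes. They are taken as a measure of free RNA, but no test for empty droplets was run. They can hold shallow nuclei, and 2 of them in PE-low 2 passed the marker gate of the members. In each library the members thus held the early genes above the level of the near-empty barcodes.

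Promoter sequences are shown for 3 genes of that list, *Tnr*, *Rras2* and *Cnksr3*, which were higher in the members than in precursors and in mature oligodendrocytes. *Rras2* is a small GTPase and *Cnksr3* a scaffold protein of Ras signalling. Each is the 250 bases before the start of the gene, from RefSeq on GRCm38.p6, printed 5′ to 3′ on the strand of the gene. Capitals mark ACAAAG or its reverse complement CTTTGT, the core bound by SOX factors, and CAGCTG, an E-box of helix-loop-helix factors such as OLIG2, searched on both strands. The positions are chr1:159523519-159523768 on the plus strand for *Tnr*, chr7:114117782-114118031 on the minus strand for *Rras2* and chr10:7212238-7212487 on the minus strand for *Cnksr3*.
Tnr: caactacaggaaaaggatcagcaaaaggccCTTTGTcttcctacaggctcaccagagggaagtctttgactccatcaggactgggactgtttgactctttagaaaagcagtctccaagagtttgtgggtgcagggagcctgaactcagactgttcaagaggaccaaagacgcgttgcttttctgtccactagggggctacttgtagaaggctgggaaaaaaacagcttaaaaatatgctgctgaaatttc
Rras2: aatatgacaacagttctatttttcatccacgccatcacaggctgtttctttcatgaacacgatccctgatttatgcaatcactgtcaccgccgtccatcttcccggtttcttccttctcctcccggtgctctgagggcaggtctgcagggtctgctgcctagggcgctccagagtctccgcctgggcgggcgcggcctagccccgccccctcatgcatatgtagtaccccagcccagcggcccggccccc
Cnksr3: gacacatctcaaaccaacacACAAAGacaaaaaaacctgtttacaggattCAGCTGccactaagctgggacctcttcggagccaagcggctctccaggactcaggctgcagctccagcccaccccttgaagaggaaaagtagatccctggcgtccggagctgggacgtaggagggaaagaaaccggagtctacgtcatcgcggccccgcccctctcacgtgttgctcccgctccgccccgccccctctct
The *Tnr* window holds 1 SOX core, the *Cnksr3* window 1 SOX core and 1 E-box, and the *Rras2* window neither. Promoters were at hand for 124 of the 161 genes higher in the members than in both other classes and for 1290 of the 1691 genes tested. The SOX core was found in 13.5% of 185 promoters of the former and in 13.0% of 1879 promoters of the latter. Among all 32851 promoters searched the share was 16.5%. For the E-box the shares were 10.8%, 13.9% and 13.0%. These are matches of letters, and the shares in the members' genes were close to those of the promoters at large.

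PE-low 1 and 2 gave 36 and 37 members of 9281 and 7250 filtered nuclei, and PE-high 1 and 2 gave 19 and 23 of 7929 and 8346. As a share of all filtered nuclei these were 0.388% (95% Wilson interval 0.280% to 0.537%) and 0.510% (0.370% to 0.703%) in the PE-low group. In the PE-high group they were 0.240% (0.153% to 0.374%) and 0.276% (0.184% to 0.413%). Both PE-high libraries lay below both PE-low libraries, with means of 0.258% ± 0.0254 and 0.449% ± 0.0866 (SD, n = 2 libraries each). As a share of the lineage, which here is the members with the mature oligodendrocytes and precursors, the order was the opposite. The members made up 5.58% (4.06% to 7.63%) and 5.04% (3.68% to 6.87%) of the lineage in PE-low 1 and 2, and 8.26% (5.35% to 12.5%) and 8.91% (6.01% to 13.0%) in PE-high 1 and 2. A two-sided exact permutation test gave p = 0.333 for either difference, the smallest p that 2 libraries against 2 allow. The PE-high libraries held 197 and 223 mature oligodendrocytes against 580 and 652, and 14 and 12 precursors against 29 and 45. All 3 classes of the lineage thus held fewer nuclei in the PE-high libraries.

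**Figure D1:**
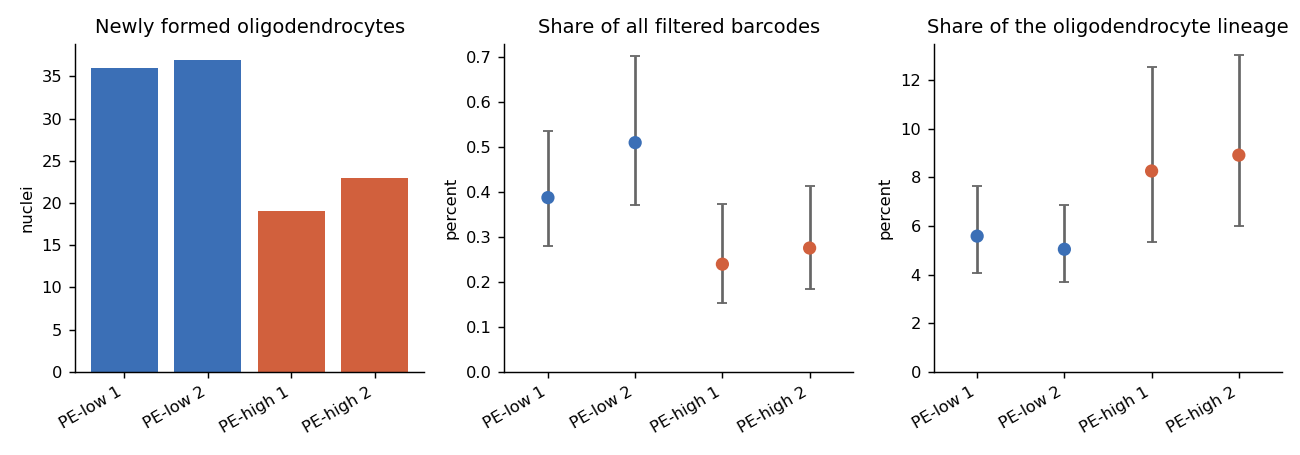
Newly formed oligodendrocytes in each of the 4 libraries, as a number of nuclei (left, bars), as a percent of all filtered nuclei (middle) and as a percent of the oligodendrocyte lineage (right). Points are libraries and whiskers are 95% Wilson intervals, which cover counting error only. The PE-high libraries are lower in the middle panel (0.240% and 0.276%) and higher in the right panel (8.26% and 8.91%).

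Depth moved with the groups beside these shares. The median member held 1749.5 and 1814 UMIs in PE-low 1 and 2 but 1068 and 1008 in PE-high 1 and 2. When the gates were applied to nuclei thinned to 500 UMIs, an alternative chosen after seeing the data, 12, 11, 3 and 11 nuclei passed the member gate. The share of the lineage was then 3.97%, 4.03%, 2.63% and 8.33%, so that PE-high 1 lay below both PE-low libraries. The difference in this share was 1.48 points (exact permutation p = 1). The share among all filtered nuclei was then 0.129%, 0.152%, 0.0378% and 0.132%, so that the groups overlapped, with a difference of -0.0557 points (exact permutation p = 0.667). With at most 3% mitochondrial UMIs, the limit of the study, 17, 22, 2 and 11 members passed and the difference in the share of the lineage turned to -1.46 points. That difference was 3.92 points with at least 1000 UMIs and 0.140 points with at least 3 stage genes. The part of depth in the shares was not tested further. The libraries shared 15 to 27 barcodes per pair among filtered nuclei and none among members, and no doublet caller was run.

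Markers of neurons, astrocytes and microglia were lower in the members than in the near-empty barcodes. The 8 neuronal genes summed to 3766, 2626, 3091 and 2509 CPM in the members and to 5328, 5879, 5104 and 5681 CPM in the near-empty barcodes of the same libraries. *Meg3* was their most abundant gene, and a neuronal UMI was present in 31 of 36, 33 of 37, 15 of 19 and 21 of 23 members. The 6 astrocyte genes summed to 589, 1100, 1276 and 579 CPM against 2805, 3062, 2964 and 2677 CPM in near-empty barcodes. The 7 microglial genes gave 158, 142, 392 and 154 CPM against 519, 435, 531 and 527 CPM. The endothelial list stood between 0 and 38.6 CPM. Thalamic neurons share *Tcf7l2* with this stage, and 5 thalamic genes summed to 934, 580, 392 and 888 CPM in the members, above the 297, 400, 229 and 340 CPM of near-empty barcodes. The list stood at 660, 542, 640 and 762 CPM in mature cells and at 1862, 2376, 1573 and 1836 CPM in precursors. *Rora* gave nearly all UMIs of the members and 3 or 4 genes were at 0 in each library, *Lef1* in all of them. The part of thalamic neurons in the results was not tested. Against mature cells the members were lower in 3 of 5 neuronal genes tested, where 19.6% of all genes tested were lower, by the test described next. These were *Syt1* (log2 fold change -0.70 ± 0.24), *Meg3* (-0.65 ± 0.22) and *Grin2b* (-0.53 ± 0.24). The calls of *Syt1* and *Meg3* were lost without PE-high 2, and that of *Grin2b* without any single library. Median depth was lower in mature nuclei than in members in each library, as given with the classes below. The part of depth and free RNA in these differences was not tested.

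**Figure D2:**
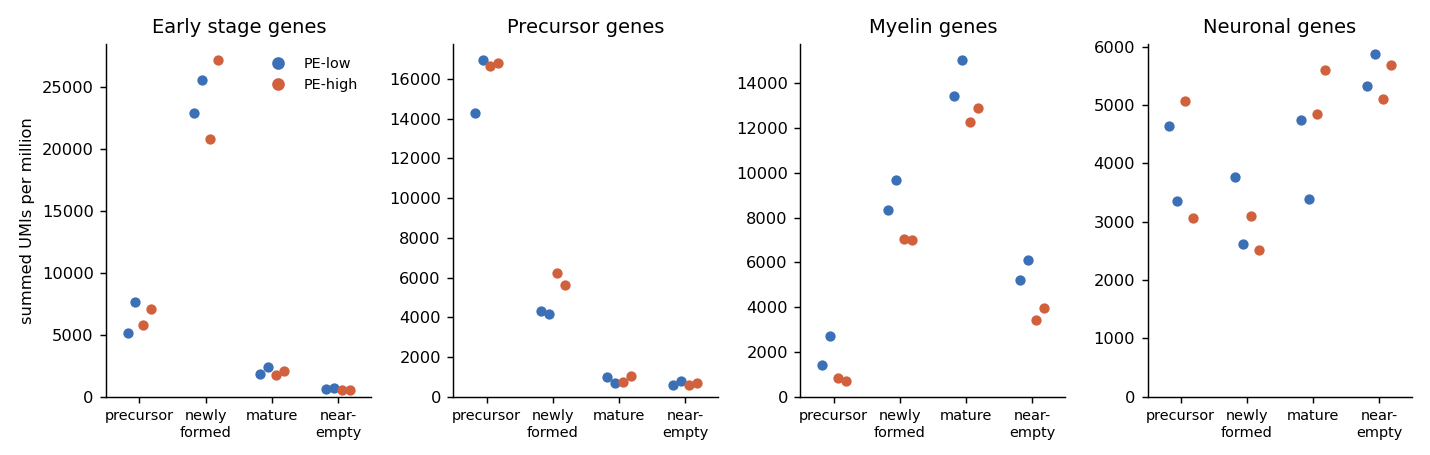
Summed CPM of 4 gene lists (early stage, precursor, myelin and neuronal genes) in precursors, newly formed oligodendrocytes, mature oligodendrocytes and near-empty barcodes. Each point is a library. The newly formed class is highest for the early list (20851 to 27179 CPM), lies between precursors and mature cells for the precursor and myelin lists, which hold 4 genes of the precursor gate and 7 of the mature gate, so that those levels are in part fixed by the choice of nuclei, and lies below near-empty barcodes for the neuronal list.

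The members were then compared with mature oligodendrocytes and with precursors of the same 4 libraries. Mature oligodendrocytes were 1652 nuclei with UMIs of at least 2 of *Mog*, *Mag*, *Opalin*, *Ermn*, *Hapln2*, *Aspa* and *Anln*, at least 1 lineage gene and no UMI of *Enpp6*, *Gpr17*, *Bmp4*, *Slc17a6* or *Pdgfra*. Precursors were 100 nuclei with *Pdgfra*, at least 1 of *Cspg4*, *C1ql1*, *Matn4* and *Cacng4*, a UMI of *Sox10*, *Olig1* or *Olig2* and none of *Slc17a6* or *Enpp6*. UMIs were summed per class and library, 12 sums in all, and edgeR's quasi-likelihood test was fitted with the library as a block. Genes used by any gate were left out of these tests. A gene was called at a Benjamini-Hochberg adjusted p under 0.1. Other genes of a nucleus vary with the genes that gated it, so the tests describe how far classes so gated differ. The median mature nucleus held 925, 1049.5, 783 and 724 UMIs and the median precursor 1154, 1516, 1001 and 833.5. Both were below the median member in each library, and their median mitochondrial percent was above that of the members. The part of depth in the class differences was not tested beyond the thinning given below. The 2 PE-high libraries hold 14 and 12 precursors, with 17169 and 11437 UMIs, and carry less weight. In 1691 genes tested, 645 (38.1%) differed from mature oligodendrocytes, 314 (18.6%) higher and 331 (19.6%) lower in the members. Against precursors 577 genes (34.1%) differed, 321 (19%) higher and 256 (15.1%) lower. Members were higher than both classes in 161 genes (9.52%), lower than both in 61 (3.61%), and between them with a fall from precursor to mature cell in 40 genes and a rise in 50.

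**Figure D3:**
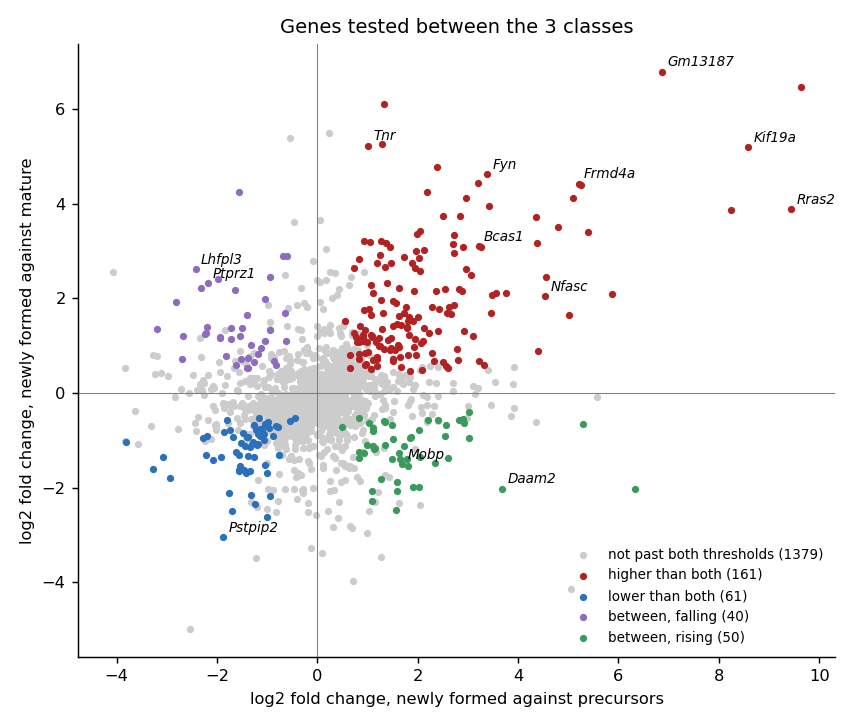
Each point is 1 of 1691 genes, with the log2 fold change of newly formed oligodendrocytes against precursors on the horizontal axis and against mature oligodendrocytes on the vertical axis. Colours mark genes called in both comparisons, 161 of them higher than both. Genes with no UMI in precursors, *Gm36988*, *Rras2* and *Kif19a* among them, have a fitted horizontal position that depends on the prior count.

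Genes of the early stage were described by a list that was chosen with earlier results of these data known, so its counts are no independent evidence. Of the 18 genes on the list 12 passed the filter on low values, which a gene can pass through the members alone. Against mature cells 12 of 12 were higher (18.6% of all genes tested), with a median log2 fold change of 4.18, where the median of all genes was -0.12. Against precursors 11 of 12 were higher (19% of all), with a median of 2.91, where that of all genes was 0.07. *Fyn* (chr10:39368855-39565381) stood at 2371, 2922, 2796 and 3938 CPM in the members, at 113, 145, 83.5 and 109 CPM in mature cells and at 259, 430, 58.2 and 350 CPM in precursors. Its lowest member library was above every library of the other classes. The log2 fold change of *Fyn* was 4.62 ± 0.24 (SE, adjusted p = 2.4e-21) against mature cells and 3.38 ± 0.28 (adjusted p = 2e-13) against precursors, n = 4 libraries. *Bcas1* followed the same pattern, at 2659, 2768, 2944 and 3436 CPM in the members and at most 427 CPM in every library of the other classes, with log2 fold changes of 3.10 ± 0.22 and 3.22 ± 0.28. Its antisense RNA *Bcas1os2* (chr2:170356361-170380435, within *Bcas1* on the other strand) was at 848, 1171, 1374 and 1274 CPM in the members and at most 175 CPM elsewhere. The strand setting of the counting is not given in the sources used here, so the reads of the pair cannot be told apart with certainty.

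*Tnr* was high in precursors as well. It stood at 5620, 6021, 6918 and 6447 CPM in the members and at 2404, 4067, 2737 and 3672 CPM in precursors, but at 192, 83.0, 181 and 205 CPM in mature cells. Its log2 fold change was 5.22 ± 0.24 against mature cells and 1.01 ± 0.21 (adjusted p = 0.00013) against precursors, and the second call was lost with the 3% mitochondrial limit (0.93, adjusted p = 0.104). *Itpr2* was at 1035, 816, 834 and 1313 CPM in the members, 5.27 ± 0.29 above mature cells and 1.28 ± 0.29 above precursors on the log2 scale. *Nfasc*, an adhesion protein of the node and its flanks, was shared in part with mature cells instead. *Nfasc* was at 3263, 4140, 2551 and 3629 CPM in the members, 2.05 ± 0.20 above mature cells and 4.53 ± 0.31 above precursors. *Tns3*, an adhesion adaptor, *Sema5a*, a semaphorin, and *Tmem163*, a zinc transporter, were also higher than both, with log2 fold changes of 3.75, 4.24 and 2.64 against mature cells and 2.85, 2.18 and 1.95 against precursors. The matrix proteoglycan *Vcan* was the list member that did not differ from precursors by the test (-0.55 ± 0.27, adjusted p = 0.13).

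**Figure D4:**
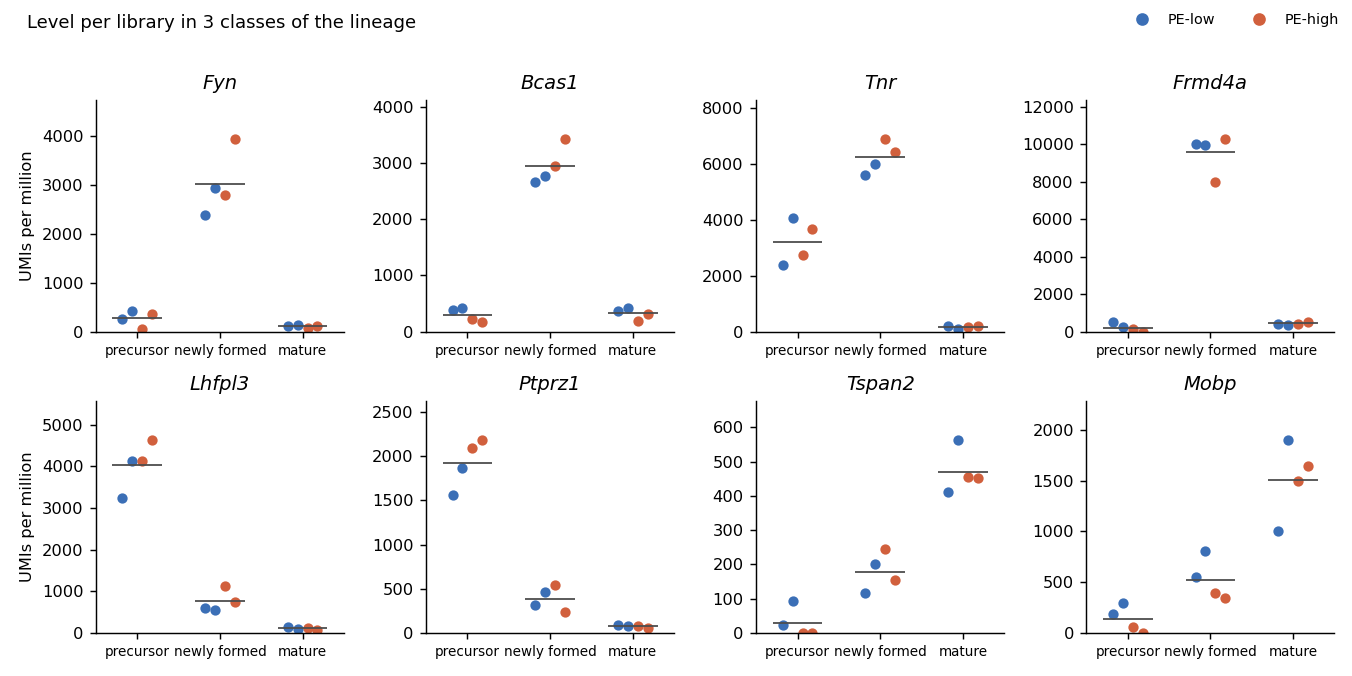
Levels in CPM of 8 genes in precursors, newly formed oligodendrocytes and mature oligodendrocytes. Each point is a library, coloured by treatment, and the line is the mean of the 4 libraries. *Fyn*, *Bcas1*, *Tnr* and *Frmd4a* peak in the newly formed class, *Lhfpl3* and *Ptprz1* step down from precursors, and *Tspan2* and *Mobp* step up to mature cells.

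*Rras2* had 532, 367, 196 and 656 CPM in the members and no UMI in the precursors of any library. Against a floor of 3 UMIs over the precursors of the 4 libraries this is at least 21.5-fold higher. Against mature cells, which had 20.4, 39.1, 18.6 and 30.5 CPM, the log2 fold change was 3.89 ± 0.33. *Kif19a*, a kinesin, was at 331, 213, 196 and 232 CPM with no UMI in precursors, at least 12.3-fold higher, and 5.19 ± 0.51 above mature cells. *Cnksr3* varied widely among the member libraries, at 1409, 1763, 196 and 849 CPM. It was still above each library of mature cells (26.1 to 117 CPM) and of precursors (0 to 58.2 CPM), with log2 fold changes of 4.39 ± 0.28 and 5.26 ± 0.47.

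The highest fold changes came in part from 1 locus. *Frmd4a* (chr2:4017717-4614043), a scaffold protein of cell polarity, was at 10032, 9960, 7997 and 10308 CPM in the members, against 369 to 535 CPM in mature cells and 0 to 495 CPM in precursors. Its log2 fold changes were 4.42 ± 0.22 and 5.21 ± 0.28. *Gm36988* (chr2:4316479-4318886) lies inside *Frmd4a* on the same strand, and *Gm13187* (chr2:4287595-4301167) inside it on the other. They were at 589, 532, 245 and 347 CPM and at 1092, 615, 932 and 1081 CPM in the members. In mature cells and precursors each was at most 23.2 CPM, and *Gm36988* had no UMI in precursors. Reads of *Gm36988* cannot be told apart from unspliced *Frmd4a* RNA, and those of *Gm13187* only with the strand. The 3 names are therefore counted here as signal of 1 locus. Other genes that peaked in the members were *Pik3r3*, a regulatory subunit of PI3 kinase (1466, 1585, 1717 and 1699 CPM, log2 fold changes of 4.13 ± 0.22 and 5.09 ± 0.38), *Ppfibp1*, a liprin (6.12 ± 0.32 and 1.32 ± 0.29) and *Arhgap24*, a GTPase-activating protein (4.77 ± 0.26 and 2.38 ± 0.32), each given against mature cells and then precursors. The noncoding RNA *9530059O14Rik* was at 2185, 2295, 1717 and 2123 CPM in the members, at 237, 177, 162 and 187 CPM in mature cells and at 23.6, 80.5, 58.2 and 0 CPM in precursors.

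Precursor genes lay mostly between their levels in the other classes. Of 12 genes on the precursor list 7 were tested. The members were lower than precursors in 6 of them (15.1% of all genes tested), with a median log2 fold change of -2.32 against 0.07 for all genes. They were higher than mature cells in 6 (18.6% of all), with a median of 2.32 against -0.12. *Lhfpl3* was at 604, 556, 1128 and 734 CPM in the members, at 3229, 4134, 4135 and 4634 CPM in precursors and at 151, 81.9, 125 and 78.4 CPM in mature cells. The 3 classes did not overlap. Its log2 fold change was -2.42 ± 0.24 against precursors and 2.61 ± 0.26 against mature cells. *Ptprz1*, a receptor phosphatase, gave -2.18 ± 0.26 and 2.32 ± 0.28. *Pcdh15*, a protocadherin, was lower than in precursors in each library, at 431, 260, 442 and 386 CPM against 2829, 2859, 3087 and 3323 CPM in precursors, and its level against mature cells was 0.37 ± 0.27 (adjusted p = 0.32). *Sox6*, which holds precursors undifferentiated, was not called against precursors. It stood at 1466, 1526, 1766 and 2355 CPM in the members, 0.23 ± 0.24 from precursors (adjusted p = 0.54) and 5.50 ± 0.27 above mature cells. Its partner *Sox5* lay between, -1.40 ± 0.28 from precursors and 1.65 ± 0.29 from mature cells. Among other genes lower than in precursors were the heparan sulfate proteoglycan *Gpc5* (446, 355, 245 and 38.6 CPM against 2287, 3060, 2272 and 4809 CPM) and the lipid phosphatase *Inpp4b* (-3.81 ± 0.42).

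Myelin genes differed in how near they came to the level of mature cells. Of 20 genes on the myelin list, 7 of which gated the mature class, 9 were tested. Against precursors 6 of 9 were higher (19% of all genes tested), with a median log2 fold change of 1.69 against 0.07 for all genes. Against mature cells 7 of 9 were lower (19.6% of all), with a median of -1.50 against -0.12. *Mbp*, the basic protein that compacts myelin, stood at 4154, 4531, 2993 and 3166 CPM in the members and at 3176, 3536, 3196 and 3165 CPM in mature cells. The ranges overlapped, and the difference from mature cells was 0.11 ± 0.19 (adjusted p = 0.71), with the sign turned under 3 alternatives, while *Mbp* was 3.20 ± 0.25 above precursors. *Mobp*, a structural protein of myelin, was lower than in mature cells at 546, 804, 392 and 347 CPM against 1005, 1904, 1494 and 1646 CPM (-1.50 ± 0.25). *Tspan2*, a tetraspanin, was at 115, 201, 245 and 154 CPM against 411, 563, 455 and 453 CPM (-1.55 ± 0.29), and above precursors by 1.80 ± 0.55. *Mal* and *Trf* (transferrin, which carries iron) were lower still, at -2.52 ± 0.32 and -2.31 ± 0.33. The kinase *Mast4*, not on the list, was at 172, 189, 196 and 154 CPM in the members and 1427, 2239, 1415 and 1511 CPM in mature cells (-3.27 ± 0.28). Near-empty barcodes held 5208, 6099, 3412 and 3946 CPM of the myelin list against 8322, 9688, 7065 and 6988 CPM in the members, and the part of free RNA in the members' myelin signal was not tested.

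Pathways around the gate genes were mostly under the filter. Of 16 Wnt genes 3 were tested, and *Daam2*, a formin that carries Wnt signals, was lower than in mature cells (-2.02 ± 0.35). It was also called higher than in precursors, which held 1 UMI of it against 17 in the members, so no fold is given. Each call was 1 of 3 genes, where 19.6% of all genes were lower than in mature cells and 19% higher than in precursors. Of 16 genes of BMP signalling 2 were tested, and *Smad7*, the inhibitory Smad, was higher than in precursors (2.19 ± 0.59) and not called against mature cells (-0.57 ± 0.30, adjusted p = 0.15), and 19% of all genes were higher than in precursors. From so few genes nothing is read about either pathway. Of 16 other transcription factors 3 were tested. *Zeb2*, which counters BMP signals and is needed for myelination, was at 2084, 1893, 1913 and 2355 CPM, 2.57 ± 0.26 above precursors and 0.57 ± 0.19 above mature cells, the latter call lost without PE-low 1 (adjusted p = 0.101). Genes of the cytoskeleton and adhesion that serve process growth were higher than in precursors in 8 of 12 tested (19% of all genes) and higher than in mature cells in 7 (18.6% of all), with 3 lower, a share near the 19.6% of all genes. *Fmnl2*, an actin formin, was 2.11 ± 0.31 above precursors and 1.10 ± 0.22 above mature cells, and *Dock10*, a GTPase activator, was -1.84 ± 0.24 from mature cells.

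Of 17 genes of myelin lipid synthesis 6 were tested. Against precursors 3 were higher and none lower, where 19% of all genes were higher, and against mature cells 2 were higher and 2 lower, where 18.6% and 19.6% of all genes were. *Ugt8a*, which makes galactosylceramide, and *Fa2h*, which hydroxylates its fatty acid, were 2.10 ± 0.41 and 2.18 ± 0.49 above precursors and were not called against mature cells (-0.05 ± 0.24 and -0.26 ± 0.27). *Elovl7*, a fatty acid elongase, was called above both, by 0.88 ± 0.27 against mature cells. Precursors held 2 UMIs of *Elovl7* against 56 in the members, so no fold is given for them. *Elovl6*, another elongase, was 0.88 ± 0.37 above mature cells and was not called against precursors (0.74 ± 0.52). *Acaca*, which starts fatty acid synthesis, and *Scd2*, a desaturase (-0.97 ± 0.25), were lower than in mature cells. Of 15 genes of PE metabolism 3 were tested, and *Pcyt2*, the rate-limiting enzyme of PE synthesis from ethanolamine, was the one called, as higher than in precursors. Among all genes 19% were higher, and nothing is read from 1 of 3 about PE genes as a group. *Pcyt2* was at 374, 260, 245 and 193 CPM in the members and at 0, 26.8, 58.2 and 87.4 CPM in precursors, a log2 fold change of 3.40 ± 0.58, and against mature cells 0.48 ± 0.27 (adjusted p = 0.18). No gene of cholesterol synthesis or lipid droplets was deep enough to be tested, and 3 genes of the unfolded protein response were tested and not called in either comparison, where 38.1% of all genes were called against mature cells and 34.1% against precursors, so that nothing is read from 3 genes.

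No gene passed the threshold between PE-high and PE-low members. The test left out the genes of the members' own rule. Of 824 genes tested on the 4 sums of members, 0 (0%) were called by edgeR, with 71 (8.62%) at an unadjusted p under 0.05, and DESeq2 called 0, with 19 at that level. The sums held 69577 and 84536 UMIs in PE-low 1 and 2 and 20383 and 25902 in PE-high 1 and 2. Members at the edge of the rule, with exactly 2 stage genes, were a larger part of the PE-high sums, as given above. On simulated data for this comparison 19.5% of genes changed 2-fold and 93.7% of genes changed 4-fold were called. A change of 2-fold was thus mostly not detectable at this depth. The simulation changed 169 of 849 and 174 of 892 tested genes at once. Its dispersion (the spread between libraries beyond counting error) was set above the fitted 0.025, and its shares hold for that setting only. Genes with a fitted change above 4-fold, *Trpc4ap* and *Shisa9* among them, were not called in the members. The groups did not overlap in 349 genes (42.4%), 193 higher (23.4%) and 156 lower (18.9%) in PE-high. With 2 libraries against 2, full separation has p = 0.333 in a two-sided exact permutation test, so nothing is read from these counts.

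The genes with the smallest p are given as not passing, each with an adjusted p near 0.52. *Nkain2*, a partner of the sodium pump, was at 7646 and 7689 CPM in PE-low members and at 5004 and 4633 CPM in PE-high members, a log2 fold change of -0.71 ± 0.15 (n = 2 libraries per group). *Sox2ot*, a noncoding RNA around *Sox2*, was at 1897 and 1644 against 785 and 849 CPM (-1.15 ± 0.27), and *Nckap5* at 2544 and 2945 against 1374 and 1621 CPM (-0.91 ± 0.23). *Cntn4*, a contactin, gave -1.96 ± 0.54 and *Shisa9*, an auxiliary protein of AMPA receptors, -2.70 ± 0.77. In each of these 5 genes both PE-high libraries lay below both PE-low libraries, as in 18.9% of all genes tested. The choice by p favours this order, so nothing is read from it. In the other direction *Trpc4ap* was at 14.4 and 35.5 CPM in PE-low and 294 and 232 CPM in PE-high members (3.17 ± 0.63), which is 1 to 6 UMIs per library. *Cdh10*, a cadherin, was at 546 and 355 against 981 and 1081 CPM (1.17 ± 0.34), and *Nrg1*, a growth factor for oligodendrocytes, at 920 and 674 against 1521 and 1621 CPM (0.95 ± 0.28). *Nptxr* and *Frrs1l*, proteins of the excitatory synapse, gave 2.23 ± 0.59 and 1.79 ± 0.53. The change with treatment was also set against that in mature oligodendrocytes, as an interaction in 1 fit of 2483 genes. It differed for 11 genes (0.443%), each with a lower ratio of PE-high to PE-low in the members than in mature cells, with 166 (6.69%) at an unadjusted p under 0.05. None of the 11 was called without PE-high 1, with DESeq2 or among nuclei with under 1% neuronal marker UMIs.

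**Figure D5:**
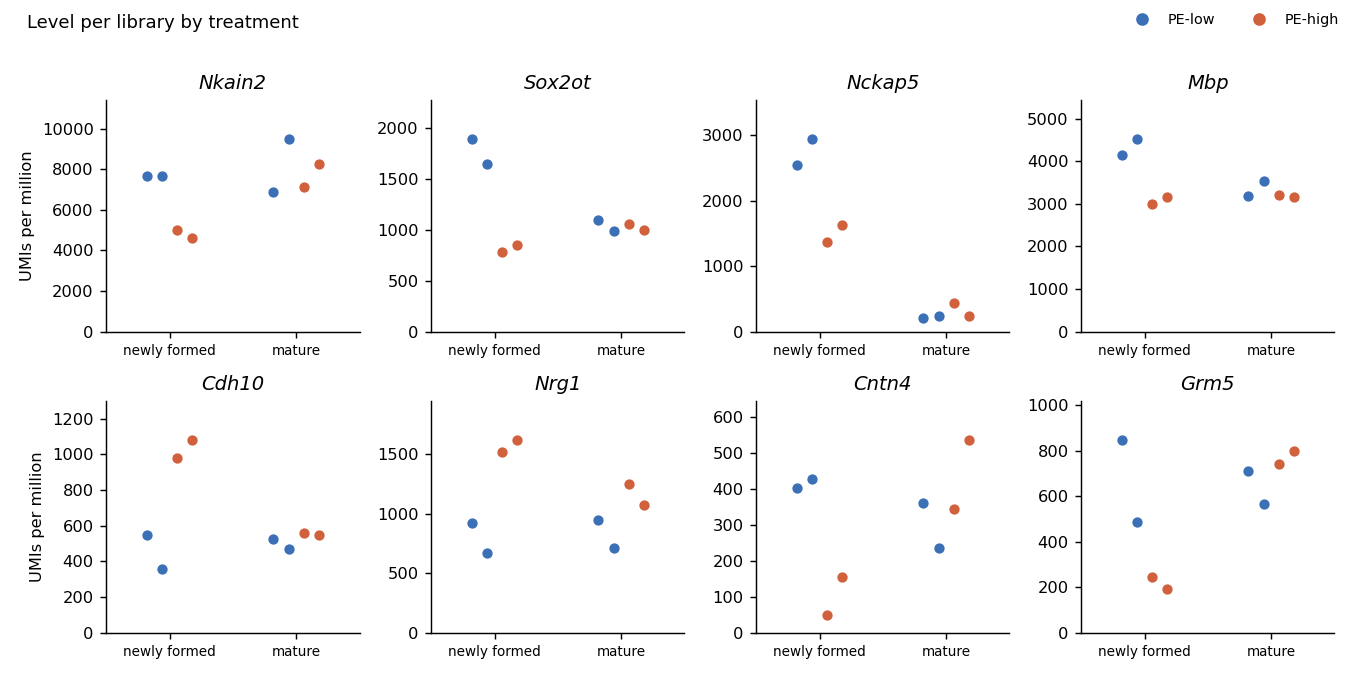
Levels in CPM of 8 genes in newly formed and mature oligodendrocytes, by treatment. Each point is a library, 2 per group. The PE-low and PE-high points of the newly formed class separate in each panel, as they did in 42.4% of all genes tested. Most panels were chosen by a small p or from the interaction calls, which favours separation. No gene passed the threshold in that class (0 of 824).

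No gene of the lists was called with treatment. For the 4 myelin genes tested the median log2 fold change was -0.73, with *Mbp* at -0.53 ± 0.18, for 6 precursor genes it was 0.37 and for 13 early genes -0.04, where the median of all genes was -0.01. The summed myelin list was at 8322 and 9688 CPM in PE-low and at 7065 and 6988 CPM in PE-high members, and the precursor list at 4326 and 4140 against 6231 and 5637 CPM. These sums did not overlap between the groups, as was so for 42.4% of the genes tested. Among the 17, 22, 2 and 11 members with at most 3% mitochondrial UMIs the groups overlapped, with the myelin list at 7783, 10972, 16251 and 8442 CPM and the precursor list at 3273, 3914, 3401 and 5476 CPM. The myelin list in near-empty barcodes moved the same way, from 5208 and 6099 CPM to 3412 and 3946 CPM, and its part in the members' values was not tested. The 3 PE genes tested had a median of -0.04. At this number of nuclei, a shift in which members were sampled and a change within each nucleus cannot be told apart.

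The members were split by the gate genes, as a description. Of them, 56 held *Enpp6* with neither *Gpr17* nor *Bmp4*, 30 held *Gpr17* or *Bmp4* without *Enpp6*, and 29 held *Enpp6* with one or both of the pair. The precursor list summed to 3105, 3148, 3250 and 3719 CPM in the first set over the 4 libraries. It was at 6944, 3331, 7208 and 8768 CPM in the second set and at 4009, 6475, 7630 and 7386 CPM in the third. In each library the *Enpp6* set without *Gpr17* or *Bmp4* had the lowest precursor sum, though in PE-low 2 it lay close to the second set. The myelin list was at 9060, 11712, 7945 and 9404 CPM in the first set, at 7161, 11420, 8986 and 3986 CPM in the second and at 8018, 4877, 1908 and 4070 CPM in the third. The sets held 17, 20, 6 and 13, then 9, 7, 9 and 5, then 10, 10, 4 and 5 nuclei by library, and no test was made between sets chosen on these nuclei.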

How the data were processed

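Nuclear RNA of 4 libraries, 2 per group with 2 mice each, was profiled with the 10x 3' v3.1 kit. The authors aligned the reads with Cell Ranger 7.1.0 to mm10 and deposited unfiltered UMI counts per gene and barcode. The deposited gene and barcode lists hold names of another kind than a measurement. Whether intronic reads were counted is not stated. The files held 41470611, 43272337, 32515094 and 29472021 UMIs (PE-low 1 and 2, PE-high 1 and 2). Columns of samples of other series numbered 0.

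The filters, gates and sums are given with the results. The mitochondrial limit of 10% is wider than the 3% of the study, which was run as an alternative. The members, their rule and all gene lists were chosen with earlier results of these data known. UMIs summed per class and library were tested with edgeR 4.0.16 (TMM, filterByExpr, glmQLFit and glmQLFTest, R 4.3.3), with the Benjamini-Hochberg adjustment over all genes tested. The difference between the treatment changes of members and mature oligodendrocytes was tested as an interaction in 1 fit. Named genes were the 10 higher and 10 lower with the largest log2 fold change among those called, in the same direction in 4 libraries and with at least 50 UMIs over the 8 sums. For the treatment they were those with the smallest p, 5 per direction where fewer passed. Genes of the lists could be named as well. *Pik3r3*, *Bcas1os2* and the 11 genes of the interaction were chosen after their values were seen. Replicate numbers were not used to pair the libraries in the main test of treatment. The deviations of libraries of the same number had a correlation of 0.00482 over 831 genes. With 2 libraries per group and sparse sums this cannot show whether the numbers pair the libraries. The alternatives were other mitochondrial, gene and UMI limits, 3 gate genes, a neuronal limit, thinning, no filter on low counts, DESeq2 1.42.0, a stricter threshold, no library block, a replicate block and leaving out each library. Tests were checked on simulated counts, and 57.6% of genes changed 2-fold between members and mature oligodendrocytes and 33.5% between members and precursors were called, with 99.5% and 92.2% at 4-fold. For the interaction 0.671% were called at 2-fold and 32.4% at 4-fold. All simulated counts had many genes changed at once and a set dispersion above the fitted one, so these shares hold for that setting. Nothing in the labels says that the libraries of a group were prepared separately, so p-values measure the spread between these libraries. Intervals and floors cover counting error only. Gene positions are from the GENCODE annotation of GRCm38, and promoters from RefSeq on GRCm38.p6, with numpy 2.4.6, scipy 1.17.1 and pandas 2.3.3 on Python 3.11.15. Values of some list genes are not reported here.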

Additional observations from a re-analysis of the deposited data

Results flagged for a closer look

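For 11 of 2483 genes tested (0.443%) the change between PE-high and PE-low differed between newly formed and mature oligodendrocytes, by the interaction in edgeR's quasi-likelihood fit, and in each the PE-high level relative to PE-low was lower in the newly formed class. The log2 ratio of the changes was -2.98 ± 0.70 (SE) for *Cntn5*, -2.73 ± 0.66 for *Cntn4*, -2.85 ± 0.71 for *Dab1*, -3.49 ± 0.89 for *Shisa9*, -1.56 ± 0.40 for *Nckap5*, -3.14 ± 0.81 for *Pdzrn3*, -1.41 ± 0.37 for *Auts2* and -1.49 ± 0.39 for *Kirrel3* (adjusted p = 0.0404 for each). It was -1.92 ± 0.52 for *Lingo2* and -2.03 ± 0.55 for *Grm5* (adjusted p = 0.052), and -1.45 ± 0.40 for *Kcnip4* (adjusted p = 0.0764). *Cntn4* and *Cntn5* are contactins, *Dab1* the adaptor of reelin signals, *Kirrel3* and *Lingo2* adhesion proteins of neurons, *Grm5* a glutamate receptor and *Kcnip4* a potassium channel subunit.

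*Cntn4* stood at 402, 426, 49.1 and 154 CPM in the newly formed class and at 361, 235, 343 and 535 CPM in mature cells (PE-low 1 and 2, PE-high 1 and 2). *Grm5* stood at 848, 485, 245 and 193 CPM in the newly formed class and at 712, 565, 742 and 801 CPM in mature cells. *Auts2* was at 2630, 3584, 981 and 2085 CPM and *Kirrel3* at 2055, 2733, 736 and 1853 CPM in the newly formed class, lowest in PE-high 1. The neuronal marker list stood at 3766, 2626, 3091 and 2509 CPM in the newly formed class and at 4747, 3390, 4852 and 5598 CPM in mature cells. With nuclei of under 1% neuronal marker UMIs none of the 11 genes was called, and none was called without PE-high 1 or with DESeq2. The part of neuronal RNA in the 11 genes was not tested further. No group had the 4 samples that a search for outlying libraries needs.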

How the results depend on the processing

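The share of members in the lineage was higher by 3.28 points in PE-high, and this difference turned to -1.46 points with the 3% mitochondrial limit. The difference ranged from 2.95 to 3.60 points when a library was left out. With 3 gate genes it was 0.140 points and with at least 1000 UMIs 3.92 points. After thinning it was 1.48 points, with PE-high 1 below both PE-low libraries. The share among filtered nuclei kept its direction but not its size, at -0.192 points, -0.443 with the 3% limit, -0.362 with at least 1000 UMIs, -0.0557 after thinning (p = 0.667 in an exact permutation test) and -0.253 to -0.130 without a library. Genes called between PE-high and PE-low members numbered 0, 2 after thinning to 500 UMIs, 10 without a filter on low counts and 0 to 1 without a library. The replicate block, though it is not known whether the numbers pair the libraries, gave 1 call (*Trpc4ap*).

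Calls against mature oligodendrocytes were 305 with the 3% mitochondrial limit, 202 after thinning and 362 to 631 without a library (362 without PE-low 2), from 645. Those against precursors were 297, 151 and 330 to 578 (330 without PE-low 2), from 577. The 11 interaction calls became 0 with the 3% limit, 3 gate genes, the neuronal limit, thinning or DESeq2, 4 with a 5% limit, 28 with no upper limit on genes, 5 with at least 1000 UMIs and 0 to 8 without a library (0 without PE-high 1, 1 without PE-low 2, 3 without PE-high 2). *Mbp* against mature cells turned to -0.0493 with the neuronal limit, -0.14 after thinning and -0.25 without a filter. Of 750 values of 55 named genes against mature cells 29 lost their call and 2 gained one, and of 791 values of 58 genes against precursors 20 lost and 5 gained one. The cause was not tested. Members hold 20383 and 25902 UMIs in the PE-high libraries, a limit of the treatment comparison beside the 2 libraries per group.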
